A study of Mus musculus with 23 samples.

Results

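The 37 genes described here belong to the unfolded protein response and the integrated stress response, the programmes with which a cell answers a crowded endoplasmic reticulum (ER), a shortage of amino acids or oxidative strain. They were taken from a list of gene symbols and mapped to the Ensembl identifiers of the count tables, where all 37 were found among 54232 identifiers. The list divides into 15 genes that follow the transcription factor ATF4, 17 that follow the factors XBP1 and ATF6, and 5 that encode the sensors and the phosphatase subunits around them. Poly(A)-selected RNA of the hippocampus of C57BL/6 mice was sequenced in 23 libraries. At 9 months of age the groups were mice with the PS19 transgene, which encodes the P301S form of tau, and 1 functional copy of Lsd1 (labelled PS19;Lsd1Δ/+, n = 4, called PS19 Lsd1 heterozygotes below), mice with the PS19 transgene and both copies of Lsd1 (PS19, n = 4), Lsd1 heterozygotes without the transgene (Lsd1Δ/+, n = 2) and wild-type mice (WT, n = 4). At 11 months all 3 groups had received a neuron-directed adeno-associated virus into the hippocampus: PS19 mice given an LSD1 virus (PS19_rescue, n = 3), PS19 mice given an HA control virus (PS19_HA, n = 3) and wild-type mice given the HA virus (WT_HA, n = 3). The study asks how tau pathology and the dose of LSD1, a histone demethylase encoded by Kdm1a, act on the hippocampus. PS19 is a transgenic overexpression line, so it models mutant tau and not a change of the mouse Mapt gene. The labels do not say whether libraries of a group came from separate animals or from pools, so the p-values below measure the spread between these libraries only.

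As background, ER stress is read by 3 sensors. PERK (Eif2ak3) phosphorylates the initiation factor eIF2, which lowers general translation while the ATF4 message is translated more, and ATF4 then switches on genes of amino acid synthesis and transport, stress regulators and brakes on the growth kinase mTORC1. IRE1 (Ern1) splices the Xbp1 message, and ATF6 is cut free from the membrane, and both then raise ER chaperones, disulfide isomerases and the machinery that returns misfolded proteins to the cytosol for degradation. In the brain ATF4 also answers other eIF2 kinases and mitochondrial strain, and PERK activity has been studied widely in models of tau and prion disease. RNA counts do not show eIF2 phosphorylation, ATF6 cleavage or Xbp1 splicing.

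The libraries held between 15451494 and 24644977 counted reads. Genes encoded by mitochondrial DNA took 33.9% of the reads of WT replicate 3, 16.1% of PS19 replicate 3 and 16.2% of WT_HA replicate 2, against 2.86% to 6.04% in the other 20 libraries, and these 3 libraries recur below. Kdm1a, before scaling, lay between 36.9 and 59.7 CPM (counts scaled to a common library total) in PS19 Lsd1 heterozygotes, 48.3 and 64.2 CPM in PS19, 35.1 and 36.4 CPM in Lsd1 heterozygotes and 39.8 and 59.2 CPM in WT. PS19 Lsd1 heterozygote replicate 3, at 59.7 CPM, lay above every WT library. Replicate 4, at 47.1 CPM, lay below WT replicates 1, 2 and 4 (51.6, 51.7 and 59.2 CPM). It lay above only WT replicate 3 (39.8 CPM), the library with 33.9% mitochondrial reads. The Atf3 and Mthfd2 differences and the branch medians of that group are also given without replicate 3. In the injected cohort Kdm1a had 11084, 3069 and 1883 CPM in PS19_rescue, against 63.9 to 66.1 CPM in PS19_HA and 52.1 to 67.1 CPM in WT_HA. All 9-month libraries were of the male type by Xist and Y-linked genes, whereas the injected groups mixed the sexes, with 2 female-type libraries in each group. WT_HA replicate 3 and PS19_rescue replicate 1, both of the male type, held 42.5 and 64.0 CPM of Xist, and WT_HA replicate 2 and PS19_HA replicate 2, both of the female type, held 20.6 and 18.6 CPM over Y-linked genes.

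Promoters of both branches are shown first, searched for letters of elements that ATF4, XBP1, ATF6 and related factors are known to bind. RefSeq (build GRCm38.p6) gave the 250 bases before the annotated start for 34 of the 37 members, all 15 of the ATF4 branch among them and 16 of the 17 of the XBP1/ATF6 branch. The letters of 5 elements were searched on both strands: the ER stress element ERSE (CCAAT, then 9 bases of any kind, then CCACG), ERSE-II (ATTGG, then 1 base of any kind, then CCACG), the XBP1 element UPRE (TGACGTGG), the C/EBP-ATF element CARE bound by ATF4 (TGATGNAA) and the cAMP response element CRE (TGACGTCA), none of which overlapped another in a member. ERSE letters stood in 7 members, all in the XBP1/ATF6 branch (Hspa5, Hsp90b1, Dnajc3, Pdia6, Calr, Canx and Creld2), and in 0.113% of the 32851 promoters of the table. ERSE-II letters stood in Herpud1 (0.0304% of promoters), CARE letters in Atf3, Chac1, Asns, Slc7a11 and Herpud1, 4 of them among the 15 of the ATF4 branch (3.45%), CRE letters in Ppp1r15a (1.55%) and UPRE letters in none of the members (0.563%). A match describes the letters of this window and no binding was measured. In the sequences that follow, written 5′ to 3′ toward the start, capitals mark the matched letters. Hspa5 (chr2:34771840-34772089, plus strand), Creld2 (chr15:88819396-88819645, plus strand), Hsp90b1 (chr10:86705445-86705694, minus strand) and Calr (chr8:84846932-84847181, minus strand) carry ERSE letters and varied in different libraries. Herpud1 (chr8:94386179-94386428, plus strand) carries letters of both branches. Atf3 (chr1:191183334-191183583, minus strand) and Asns (chr6:7693210-7693459, minus strand) carry CARE letters and behaved unlike each other.
Hspa5: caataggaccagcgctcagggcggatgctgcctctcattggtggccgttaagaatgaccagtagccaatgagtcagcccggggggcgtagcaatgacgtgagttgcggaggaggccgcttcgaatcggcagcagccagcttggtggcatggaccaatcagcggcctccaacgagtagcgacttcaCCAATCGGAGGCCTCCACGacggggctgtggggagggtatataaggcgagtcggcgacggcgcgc
Creld2: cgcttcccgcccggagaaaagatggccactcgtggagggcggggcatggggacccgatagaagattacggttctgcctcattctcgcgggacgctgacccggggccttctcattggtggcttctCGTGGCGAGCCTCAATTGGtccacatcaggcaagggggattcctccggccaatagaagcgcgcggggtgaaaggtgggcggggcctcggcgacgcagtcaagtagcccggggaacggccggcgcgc
Hsp90b1: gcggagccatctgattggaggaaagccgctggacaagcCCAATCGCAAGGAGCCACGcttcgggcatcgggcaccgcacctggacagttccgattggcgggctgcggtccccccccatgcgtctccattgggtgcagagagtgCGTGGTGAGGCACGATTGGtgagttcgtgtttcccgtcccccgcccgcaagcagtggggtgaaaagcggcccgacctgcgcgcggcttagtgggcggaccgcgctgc
Calr: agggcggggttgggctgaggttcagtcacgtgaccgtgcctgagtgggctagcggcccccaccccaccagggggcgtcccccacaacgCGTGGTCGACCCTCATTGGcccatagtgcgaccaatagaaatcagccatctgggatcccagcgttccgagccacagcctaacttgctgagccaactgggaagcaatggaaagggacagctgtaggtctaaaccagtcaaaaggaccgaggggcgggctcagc
Herpud1: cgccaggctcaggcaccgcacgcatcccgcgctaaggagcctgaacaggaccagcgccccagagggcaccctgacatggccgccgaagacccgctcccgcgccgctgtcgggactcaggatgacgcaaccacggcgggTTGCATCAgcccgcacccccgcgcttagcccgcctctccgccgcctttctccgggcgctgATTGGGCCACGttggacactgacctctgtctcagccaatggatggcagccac
Atf3: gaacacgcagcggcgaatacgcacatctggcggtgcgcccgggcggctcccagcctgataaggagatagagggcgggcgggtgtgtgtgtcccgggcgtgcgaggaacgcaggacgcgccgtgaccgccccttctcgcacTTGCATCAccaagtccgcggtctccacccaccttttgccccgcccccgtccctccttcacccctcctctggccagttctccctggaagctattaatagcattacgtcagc
Asns: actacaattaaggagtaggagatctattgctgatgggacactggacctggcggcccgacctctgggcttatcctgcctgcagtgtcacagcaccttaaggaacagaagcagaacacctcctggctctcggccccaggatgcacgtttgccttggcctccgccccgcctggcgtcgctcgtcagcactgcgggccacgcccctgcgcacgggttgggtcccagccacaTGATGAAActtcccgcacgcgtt

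Within the hippocampus the members spanned a wide range of levels. Per kilobase of exon, the mean over the 23 libraries was highest for Calr (113 CPM per kb), Canx (81.9 CPM per kb), Hsp90b1 (79.4 CPM per kb), Pdia3 (61.8 CPM per kb) and Hspa5 (58.1 CPM per kb). These are the lectin chaperones calreticulin and calnexin, the ER form of HSP90, a disulfide isomerase that works with the lectins, and BiP, the main ER HSP70. Atf4 came sixth at 32.4 CPM per kb. At the other end stood Mthfd2 (2.03 CPM per kb), an enzyme of mitochondrial one-carbon metabolism, Atf3 (0.963 CPM per kb), a stress-induced transcription factor, and Trib3 (0.229 CPM per kb), a pseudokinase that CHOP and ATF4 induce. The ratio of the highest to the lowest library passed 2 for 29 members and 5 for 8, and was largest for Atf3 at 13.9. Ddit3 ranged over the libraries from 12 to 24.5 CPM, Asns from 55.4 to 86.4 CPM and Sesn2 from 4.89 to 30.2 CPM. Of the chaperones and degradation factors, Dnajb11 ranged from 40.4 to 65.2 CPM, Herpud1, a scaffold of the degradation complex, from 28.9 to 59.2 CPM, and Dnajc3 from 50.0 to 104 CPM. Eif2ak3 ranged from 15.5 to 36.1 CPM, Ern1 from 14.5 to 26.9 CPM and Ppp1r15b from 47.9 to 75.9 CPM. The most even member was Sel1l, an adaptor of the ER degradation ligase, with a ratio of 1.45. The single neighbour with the largest overlap shared 11.4% of the exon bases of Ppp1r15b, 10.3% of Hsp90b1 and 8.05% of Eif2ak3. For Ddit3 it was Mars, with 3.97%, beside 6.13% shared with a second Ensembl entry named Ddit3 that held 0 reads. Calr and Phgdh have annotated pseudogenes. The strand setting of the counting is not given in the sources used here, so reads of such neighbours and copies cannot be told apart from those of the members. In bulk RNA a different number of cells of a type and a different RNA content per cell cannot be told apart.

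**Figure D1:**
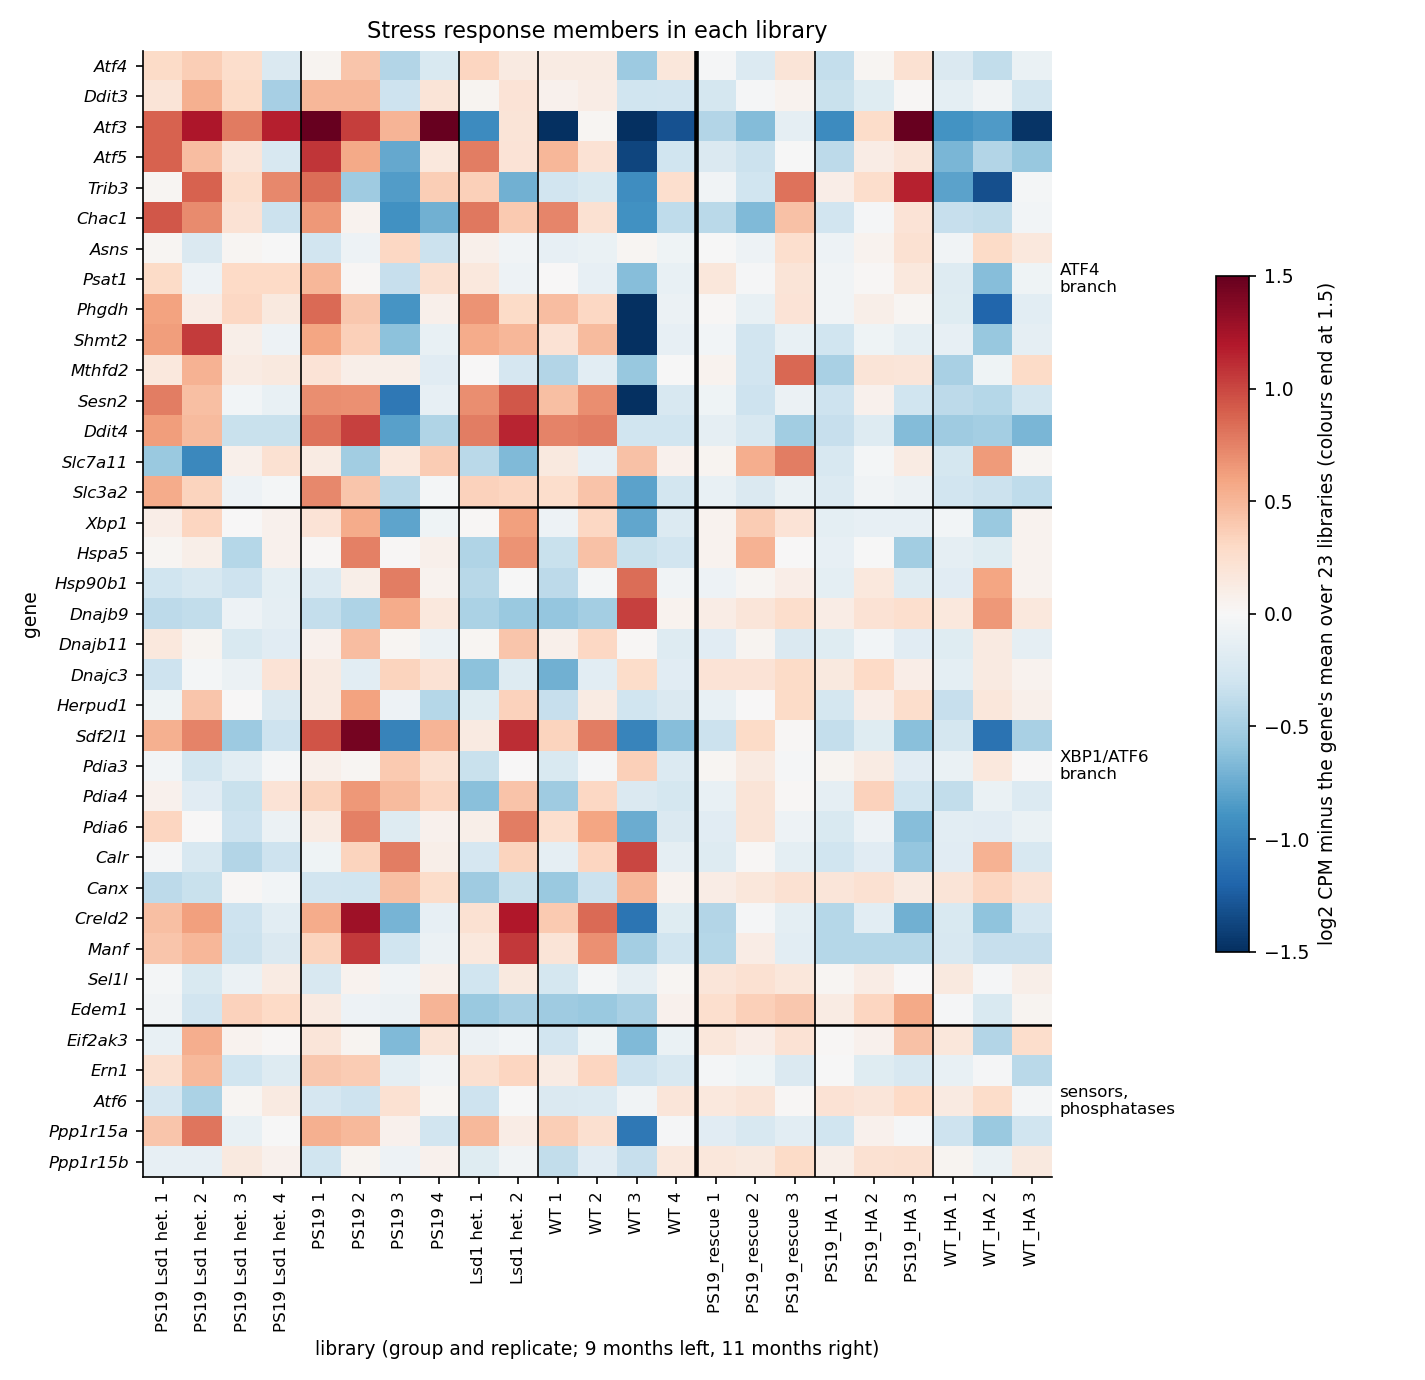
Level of each member (rows, in 3 blocks) in each of 23 libraries (columns) as log2 CPM minus the gene's mean, red above and blue below. Atf3 is red in all 8 PS19 libraries of the 9-month cohort, and WT replicate 3, PS19 replicate 3 and WT_HA replicate 2 are blue for Phgdh and Shmt2 and red for Hsp90b1, Dnajb9 and Calr.

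The PS19 transgene at 9 months was set against WT to see which of these genes move with tau. Atf3 had 5.06, 3.3, 2.26 and 4.82 CPM in PS19, against 0.384, 1.59, 0.453 and 0.572 CPM in WT. Every PS19 library lay above every WT library, with WT replicate 2 the nearest. The fitted log2 difference was 2.34 (SE 0.46, 5.07-fold). DESeq2 called it (adjusted p = 0.000185) and edgeR's quasi-likelihood test did not (adjusted p = 0.126), so the call rests on the tool. Over the alternatives of edgeR the difference ran from 2.08 to 3.00 with adjusted p from 0.0459 to 0.99997. The value of 3.00 was that without WT replicate 2. The adjusted p of 0.0459 was that without PS19 replicate 2, where edgeR called 146 of 20144 genes. Of all genes tested, edgeR called 0.00497% and DESeq2 0.958%, and Atf3 was the only member that either called. Beside it, the summed level of 8 microglial markers was 947, 354, 410 and 920 CPM in PS19, against 302, 296, 303 and 326 CPM in WT. None of the 8 was at 0. The fitted difference was above 0 for 7 of the 8 and below for 1, with 1 called by DESeq2 and none by edgeR. The 2 PS19 libraries with the most Atf3 were also those with the most microglial RNA. In WT the library with the most Atf3, replicate 2, had the least microglial RNA. The part of microglia in the Atf3 difference was not tested. Choroid plexus markers, 8 genes as well, summed to 2773, 1614, 3999 and 566 CPM in PS19, against 215, 3406, 1116 and 412 CPM in WT, an overlap. The oligodendrocyte markers summed to 5052 to 6592 CPM in PS19 Lsd1 heterozygotes and 5074 to 7587 CPM in PS19, above the 4026 to 4646 CPM of WT. The astrocyte markers summed to 4700 to 8308 CPM in PS19 Lsd1 heterozygotes and 4324 to 9918 CPM in PS19, against 4106 to 5940 CPM in WT, and the neuron markers to 4942 to 9634 CPM in PS19 Lsd1 heterozygotes and 6734 to 11010 CPM in PS19, against 9102 to 11161 CPM in WT. In PS19 the fitted difference to WT was above 0 for 8 of 8 oligodendrocyte, 8 of 8 astrocyte and 0 of 8 neuron markers, with 1 astrocyte marker called by DESeq2 and none of the 24 by edgeR. The part of these cell types in the differences of the members was not tested.

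The other members had smaller differences. In PS19, 31 of 37 members had a fitted difference above 0, against 46.5% of all 20122 genes tested, with a median of 0.22 for the members and -0.02 for all genes. Only Atf3 and Pdia4 passed an unadjusted p of 0.05, as did 3.91% of all genes. Pdia4, a disulfide isomerase of the ER, had 54.4, 67.8, 60.3 and 54.3 CPM in PS19, against 29.9, 53.5, 37.2 and 35.9 CPM in WT. All 4 PS19 libraries were above all 4 WT libraries, the highest WT library being replicate 2, and the log2 difference of 0.59 (SE 0.25) did not pass edgeR (adjusted p = 0.99997) or DESeq2 (adjusted p = 0.859). Atf3 and Pdia4 were the members whose groups did not overlap, a pattern that 1.02% of all genes showed in this direction, and no member stood apart downward (0.557% of all genes). With size factors in place of TMM scaling only Atf3 stood apart. Without the 2 libraries of high mitochondrial share, 6 members stood apart (Ddit3, Atf3, Psat1, Pdia3, Pdia4 and Eif2ak3), with 3.55% of all genes doing so.

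By role, the transcription factors around ATF4 were uneven. Atf4 itself averaged 74.2 ± 19.5 CPM in PS19 and 74.8 ± 15.8 CPM in WT (SD, n = 4 each). The difference for Ddit3, which encodes CHOP, was 0.34, for Atf5 0.48, for Trib3 0.41 and for Chac1, a glutathione-degrading enzyme, -0.16. Among the enzymes, Psat1 and Phgdh of serine synthesis differed by 0.33 (SE 0.20) and 0.31, Shmt2 and Mthfd2 of one-carbon metabolism by 0.22 and 0.33 (SE 0.20), and Asns, asparagine synthetase, by -0.01. Sesn2 and Ddit4, which restrain mTORC1, differed by 0.16 and 0.01, and the cystine transporter subunits Slc7a11 and Slc3a2 by -0.08 and 0.25. The branch median was 0.25, with 11 of 15 members above 0. In the XBP1/ATF6 branch 15 of 17 were above 0 with a median of 0.19. Beside Pdia4, its largest differences were Sdf2l1 at 0.67 (SE 0.49), a partner of the ER J-proteins, and Edem1 at 0.49 (SE 0.24), a lectin that hands glycoproteins to degradation. All 5 sensors and phosphatase subunits lay between 0.00 and 0.26, with Ppp1r15a at 0.26 (SE 0.29), Eif2ak3 at 0.23 (SE 0.22) and Ern1 at 0.16 (SE 0.20). None of the members in this paragraph passed either tool. Set side by side by replicate number, PS19 minus WT was 0.53, 0.12, 0.43 and 0.25 in replicates 1 to 4 for the mean log2 level of the ATF4 branch, and 0.315, 0.23, 0.13 and 0.27 for that of the XBP1/ATF6 branch. All 8 were above 0, while the unpaired libraries overlapped for both branches. The labels do not say that the numbers pair the libraries, and no p is given for these means.

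**Figure D2:**
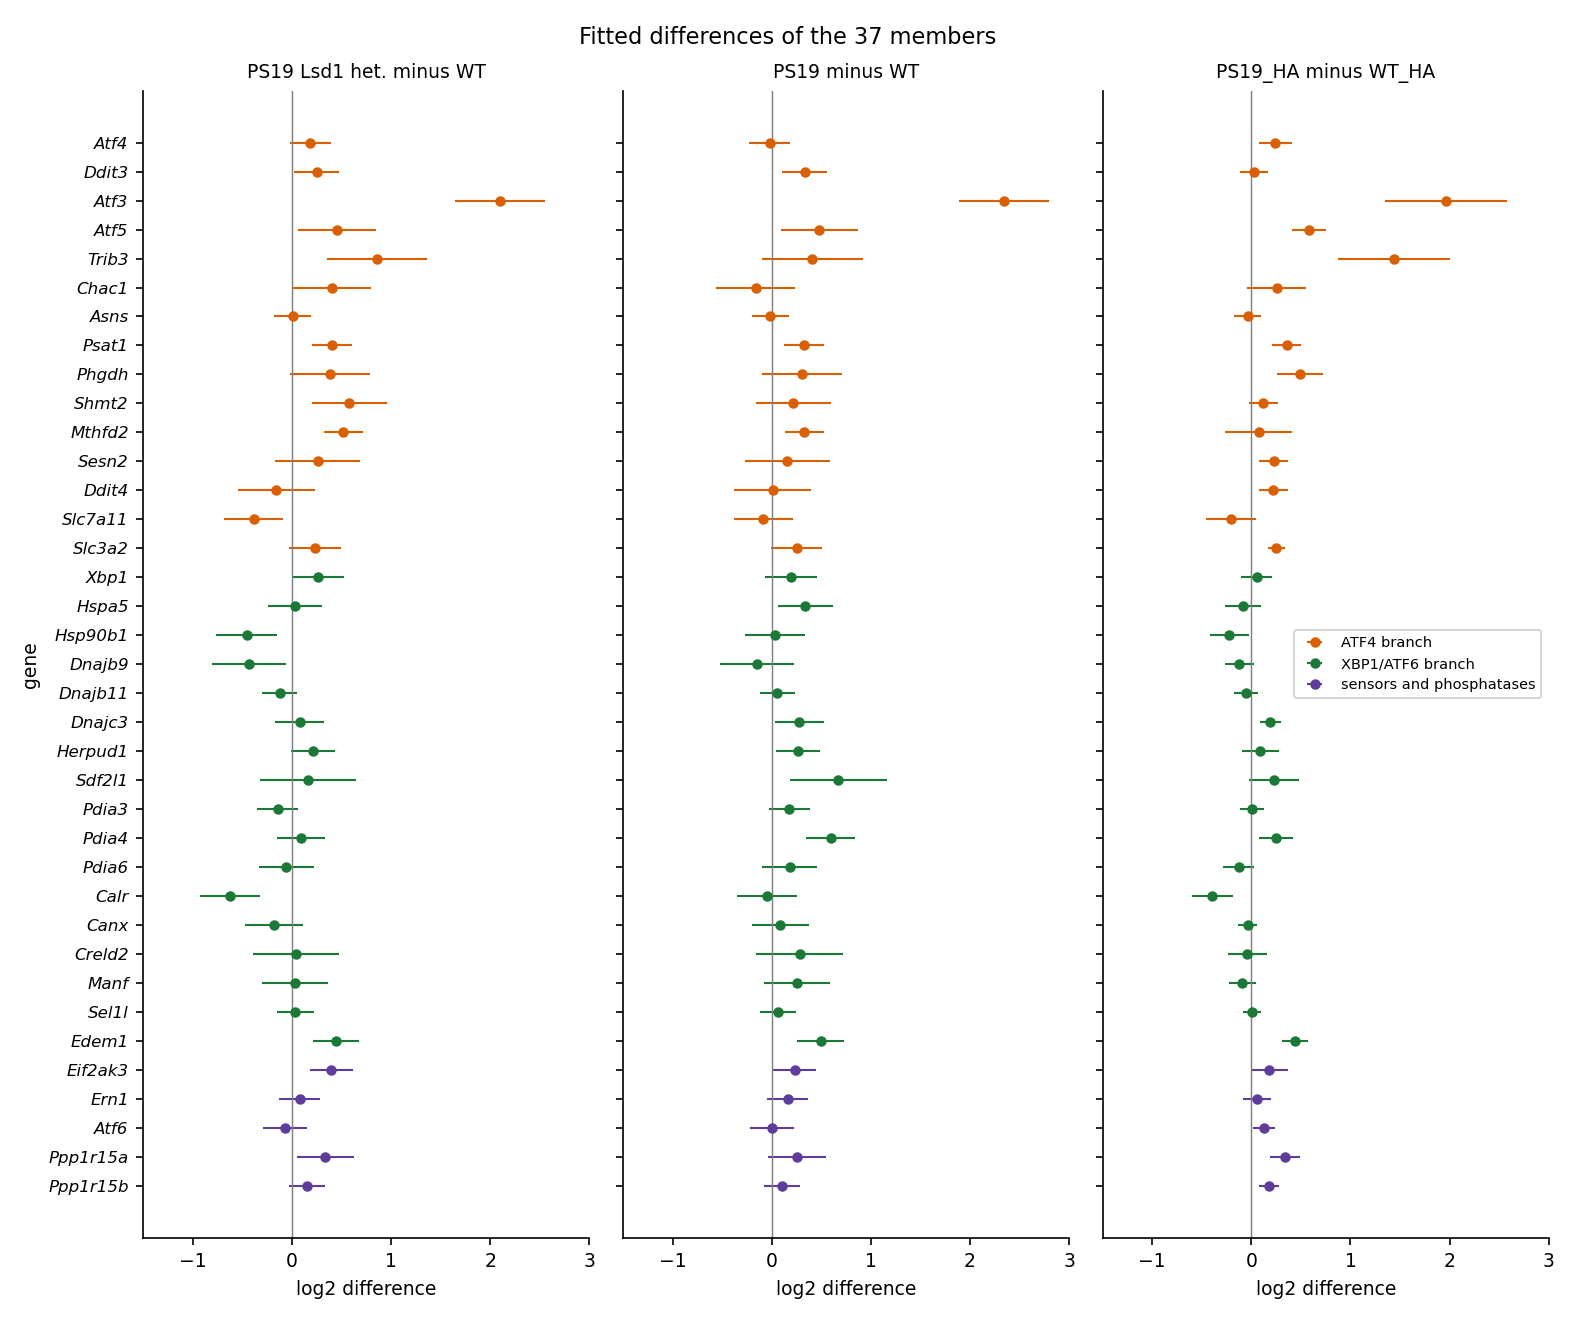
Fitted log2 difference (x axis, edgeR, bars are 1 SE) of each member (y axis) for PS19 Lsd1 heterozygotes minus WT, PS19 minus WT and PS19_HA minus WT_HA. Atf3 lies at 2.1, 2.34 and 1.96, while most other members lie within 1 log2 unit of 0. The first pair of panels shares the WT libraries.

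PS19 Lsd1 heterozygotes were compared with the same WT libraries and with PS19 to see whether a reduced Lsd1 dose shifts the stress genes further. Atf3 had 2.97, 3.74, 2.75 and 3.62 CPM in PS19 Lsd1 heterozygotes, again above the 4 WT libraries. The log2 difference to WT was 2.1 (SE 0.46), called by DESeq2 (adjusted p = 0.0029) and not by edgeR (adjusted p = 0.318). Without replicate 3 of the heterozygotes it was 2.16 with an edgeR adjusted p of 0.549, without their replicate 4 it was 2.03 (edgeR adjusted p = 0.709), and without WT replicate 2 it was 2.75. Calls over all genes were 0.00497% by edgeR and 0.552% by DESeq2. Microglial markers summed to 625, 404, 678 and 669 CPM in PS19 Lsd1 heterozygotes, above the WT libraries. The fitted difference was above 0 for 7 of the 8 markers and below for 1, with 1 called by DESeq2 and none by edgeR. Heterozygote replicate 2, with the most Atf3, had the least microglial RNA, and replicate 3, with the least Atf3, had the most. The part of microglia was not tested. Against PS19 the Atf3 difference was -0.25, and the groups overlapped.

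Mthfd2 was the second member whose PS19 Lsd1 heterozygotes all lay above WT, as 3.35% of all genes did, and no member stood apart downward (1.05% of all genes). Its levels were 7.71, 9.97, 7.53 and 7.66 CPM in PS19 Lsd1 heterozygotes, against 5.04, 6.2, 4.62 and 6.87 CPM in WT, a log2 difference of 0.52 (SE 0.20) with an edgeR adjusted p of 0.729, and of 0.55 (edgeR adjusted p = 0.759) without heterozygote replicate 3. Atf3 and Mthfd2 were also the members at an unadjusted p of 0.05, which 6.31% of all genes reached. In the ATF4 branch 13 of 15 members had a difference above 0, with a median of 0.38, while in the XBP1/ATF6 branch 10 of 17 did, with a median of 0.03. Among all genes 50.1% lay above 0, with a median of 0.00. Leaving out WT replicate 3 and PS19 replicate 3, with their high mitochondrial share, gave medians of 0.21 and 0.05, and leaving out heterozygote replicate 3 gave 0.37 and 0.09, with 0 members called by edgeR. Shmt2 (0.58), Trib3 (0.85), Atf5 (0.45), Psat1 (0.40, SE 0.20) and Chac1 (0.40) stood on the higher side, and Calr (-0.63, SE 0.30), Hsp90b1 (-0.45, SE 0.31), Dnajb9 (-0.44), Slc7a11 (-0.38) and Canx (-0.18) on the lower side. Edem1 differed by 0.44 (SE 0.24), Eif2ak3 by 0.40 (SE 0.22), Ppp1r15a by 0.34 (SE 0.29) and Ppp1r15b, the constitutive partner of the eIF2 phosphatase, by 0.15 (SE 0.18). None of them passed edgeR or DESeq2. WT replicate 3 was the highest WT library for Calr, Hsp90b1, Dnajb9 and Canx and the lowest for Shmt2, Atf5, Psat1 and Chac1.

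Against PS19, the PS19 Lsd1 heterozygotes had lower fitted values for 16 of the 17 XBP1/ATF6 members, with a branch median of -0.24, whereas the ATF4 branch had 9 of 15 above 0 and a median of 0.08. Among all genes 47.4% lay above 0, with a median of -0.02. The exception was Xbp1 at 0.07. Calr differed by -0.58 (SE 0.30) and Hsp90b1 by -0.49 (SE 0.31). PS19 replicate 3, of high mitochondrial share, was the highest PS19 library for both, at 536 CPM for Calr and 528 CPM for Hsp90b1. In the ATF4 branch Chac1 differed by 0.56 (SE 0.40), Slc7a11 by -0.30 (SE 0.30) and Atf4 by 0.20 (SE 0.21). Of the sensors, Eif2ak3 differed by 0.17 (SE 0.22), Ern1 by -0.08 (SE 0.20) and Atf6 by -0.07 (SE 0.22). Pdia4 had 45.2, 38.5, 34.3 and 49.9 CPM in PS19 Lsd1 heterozygotes, all under the 4 PS19 libraries. Pdia3, its lectin-linked relative, had 187, 158, 172 and 189 CPM in PS19 Lsd1 heterozygotes, against 202, 197, 253 and 225 CPM in PS19. These were the only members whose groups did not overlap, and 0.268% of all genes stood apart in that direction. With size factors in place of TMM scaling only Pdia4 did. The log2 differences were -0.50 (SE 0.25) for Pdia4 and -0.32 for Pdia3, and edgeR called no member (0% of all genes called, lowest adjusted p among members 0.9999). No member reached an unadjusted p of 0.05, where 1.25% of all genes did, and DESeq2 called none (0.00502% of all genes). The branch median was -0.22 without the libraries of high mitochondrial share, -0.19 without heterozygote replicate 3, and -0.21 and -0.23 within replicates 1 and 2 and within replicates 3 and 4. That of the ATF4 branch was -0.13 within replicates 1 and 2 and 0.27 within replicates 3 and 4, so its direction turned, and 0.05 without heterozygote replicate 3.

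Lsd1 heterozygotes without the transgene were compared with the same WT libraries to read the effect of the Lsd1 dose alone, with only 2 libraries, numbered 1 and 2. No member was called by edgeR (0%) or DESeq2 (0.00502% of all genes), and none reached an unadjusted p of 0.05 (1.28% of all genes). In the ATF4 branch 14 of 15 members lay above 0, with a median of 0.32, against 49% of all genes and a median of -0.02. Within replicates 1 and 2 of both groups that median was 0.12. Ddit4 had 72.2 and 93.5 CPM in Lsd1 heterozygotes, against 70.8, 72, 34.3 and 34.6 CPM in WT. The groups did not overlap, but WT replicates 1 and 2 were within 2 CPM of the lower heterozygote, and the log2 difference of 0.61 (SE 0.47) was 0.21 within replicates 1 and 2. Shmt2 also stood apart upward, as 5.37% of all genes did, though not with library sizes counted without mitochondrial genes, and Slc7a11 downward, as 5.8% did. Slc7a11 had 50.4 and 42.1 CPM in Lsd1 heterozygotes, against 73.4, 61.2, 90.1 and 69.3 CPM in WT, a difference of -0.74 (SE 0.38, edgeR adjusted p = 0.805) that was -0.54 within replicates 1 and 2. Sesn2 differed by 0.74 (SE 0.51), Xbp1 by 0.45 (SE 0.32) and Manf by 0.55 (SE 0.40). Dnajb9 differed by -0.75 (SE 0.47), but by 0.029 within replicates 1 and 2, so its direction turned. Ern1 differed by 0.24 (SE 0.25), Ppp1r15a by 0.30 (SE 0.35) and Eif2ak3 by 0.15 (SE 0.26). Shmt2, Sesn2, Xbp1, Manf, Ern1 and Ppp1r15a were each higher in WT replicates 1 and 2 than in WT replicates 3 and 4. The heterozygotes had no libraries of the latter numbers. The XBP1/ATF6 members split by library: 16 of 17 were higher in replicate 2 than in replicate 1, among them Hspa5 at 382 CPM and 175 CPM.

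The injected cohort repeated the tau comparison at 11 months, with PS19_HA against WT_HA. No member was called by edgeR (0.0156% of all genes called) or DESeq2 (0.628%), but 7 reached an unadjusted p of 0.05, all higher in PS19_HA, where 8.63% of all genes did in either direction. They were Atf3, Atf5, Trib3, Psat1, Slc3a2, Edem1 and Ppp1r15a. Atf5, a transcription factor translated like ATF4, had 14.6, 20.7 and 21.8 CPM in PS19_HA, against 11.9, 14.1 and 12.9 CPM in WT_HA. Its groups did not overlap, and the log2 difference was 0.58 (SE 0.17, edgeR adjusted p = 0.454). Edem1 had 30.4, 34.9 and 41.4 CPM in PS19_HA, against 27.6, 23.8 and 28.7 CPM in WT_HA, a difference of 0.44 (SE 0.13, adjusted p = 0.454). Slc3a2, the heavy chain of several amino acid transporters, had 81, 89.8 and 87.8 CPM in PS19_HA, against 76, 74.4 and 71.6 CPM in WT_HA, a difference of 0.25 (SE 0.09, adjusted p = 0.479). Both were higher in every PS19_HA library than in any WT_HA library. Trib3, at 0.468, 0.539 and 1.08 CPM in PS19_HA and 0.208, 0.117 and 0.423 CPM in WT_HA, rested on few reads.

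Atf3 was uneven in the injected cohort. It had 0.766, 1.91 and 5.33 CPM in PS19_HA, against 0.791, 0.82 and 0.5 CPM in WT_HA. PS19_HA replicate 1 lay inside the WT_HA range and replicate 3 lay far above it, and the log2 difference of 1.96 (SE 0.62, edgeR adjusted p = 0.462, DESeq2 adjusted p = 0.157) was 0.97 without replicate 3. Microglial markers summed to 324, 508 and 668 CPM in those PS19_HA libraries, in the same order as Atf3, against 331, 303 and 275 CPM in WT_HA. Choroid plexus markers summed to 4839, 5678 and 823 CPM in PS19_HA, against 191, 318 and 1613 CPM in WT_HA, and their part in the differences of this cohort was not tested.

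Psat1 and Phgdh, consecutive enzymes of serine synthesis with Phgdh at the first step, stood apart as well. Psat1 had 97.7, 103 and 113 CPM in PS19_HA, against 88.5, 65 and 96.6 CPM in WT_HA. Phgdh had 42.7, 47 and 45.3 CPM in PS19_HA, against 39.2, 19.4 and 39.6 CPM in WT_HA. The low WT_HA value of both came from replicate 2, the library of high mitochondrial share. Leaving out the lowest library of the lower group cannot make the groups overlap, so that setting could not test the separation. The nearest libraries of PS19_HA and WT_HA were at 97.7 and 96.6 CPM for Psat1 and at 42.7 and 39.6 CPM for Phgdh. Ppp1r15a, the inducible subunit that directs a phosphatase to eIF2, had 8.39, 10.9 and 10.2 CPM in PS19_HA, against 8.32, 7.03 and 8.39 CPM in WT_HA, a difference of 0.34 (SE 0.15) with groups that all but touch. In all, 7 members stood apart upward (6.32% of all genes) and Manf, a secreted ER factor, downward (7.76%). The ATF4 branch had 13 of 15 members above 0 and a median of 0.24, and the XBP1/ATF6 branch 8 of 17 and a median of -0.04, beside 50.5% of all genes and a median of 0.00. Without WT_HA replicate 2 the medians were 0.20 for ATF4 and 0.03 for XBP1/ATF6. Calr differed by -0.39 (SE 0.21), with WT_HA replicate 2 at 451 CPM and the other WT_HA libraries at 266 and 280 CPM. Dnajc3, an inhibitor of eIF2 kinases that also works as a BiP co-chaperone, differed by 0.19 (SE 0.11), Ppp1r15b by 0.18 (SE 0.10) and Atf6 by 0.13 (SE 0.11).

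**Figure D3:**
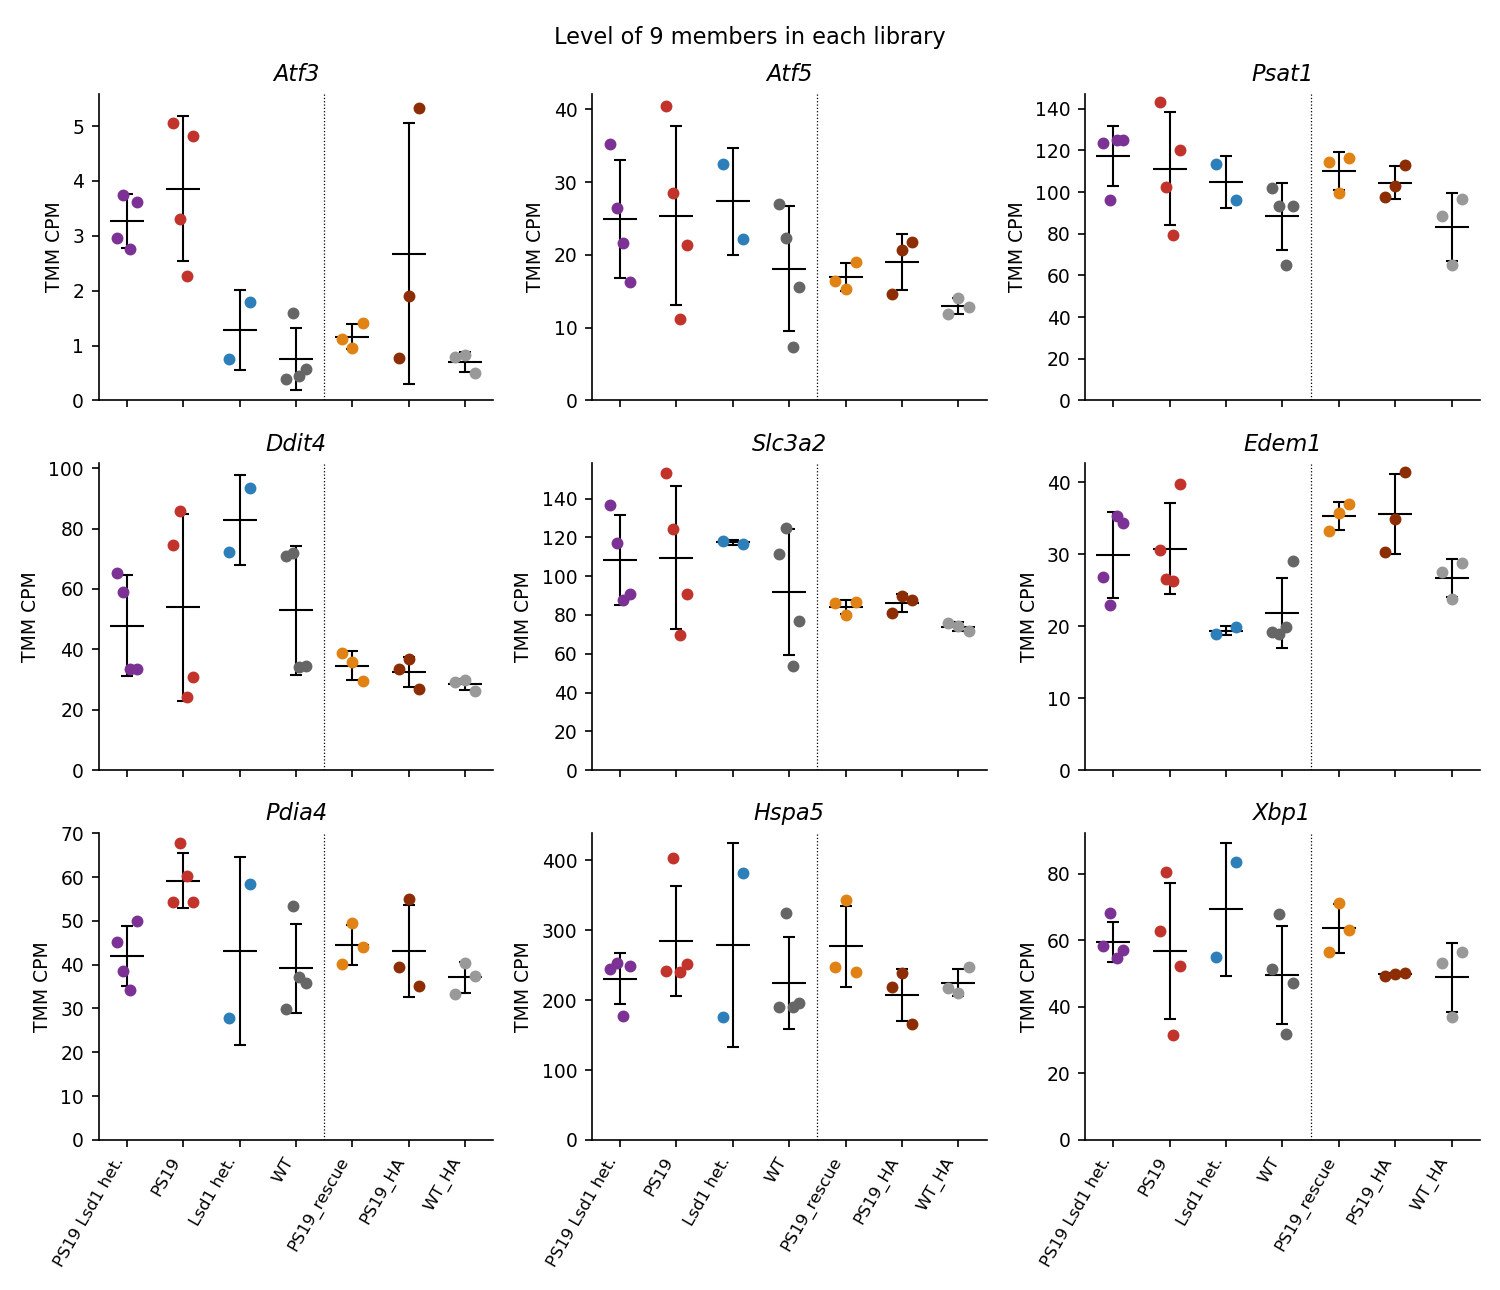
TMM-scaled CPM (y axis, from 0) of 9 members in each library, by group (x axis, 9 months left of the dotted line, 11 months right). Points are libraries, and bars are the mean and SD. For Atf3 all PS19 Lsd1 heterozygote and PS19 libraries lie above all WT libraries, Ddit4 splits within groups, and Hspa5 has 1 high library in PS19, in Lsd1 heterozygotes and in WT.

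PS19_rescue was set against PS19_HA to see what added LSD1 does to these genes. No member was called by edgeR (0% of all genes) or DESeq2 (0.0156%), and none reached an unadjusted p of 0.05 (1.81% of all genes). Atf3 had 1.12, 0.957 and 1.41 CPM in PS19_rescue, a log2 difference to PS19_HA of -1.25 (SE 0.59, edgeR adjusted p = 0.99999). The groups overlapped, and without PS19_HA replicate 3 the difference was -0.26. Microglial markers summed to 393, 379 and 396 CPM in PS19_rescue. Xbp1 had 56.6, 71.2 and 63.1 CPM in PS19_rescue, against 49.2, 50 and 50.3 CPM in PS19_HA. Hspa5 had 247, 344 and 240 CPM in PS19_rescue, against 219, 238 and 166 CPM in PS19_HA. Both stood apart upward, as did Sel1l, at a rate of 8% among all genes, with differences of 0.30 (SE 0.16) for Xbp1 and 0.36 (SE 0.18) for Hspa5, and no member stood apart downward (1.87% of all genes). With library sizes counted without mitochondrial genes, only Xbp1 stood apart upward, and Atf6 downward. Of the 37 members 14 lay above 0, against 48.2% of all genes, and the branch medians were -0.03 for ATF4 and 0.02 for XBP1/ATF6. Slc7a11 differed by 0.47 (SE 0.25), Atf5 by -0.22 (SE 0.17), Manf by 0.24 (SE 0.14), Atf6 by -0.16 (SE 0.11), Ppp1r15a by -0.17 (SE 0.15) and Eif2ak3 by -0.07 (SE 0.18).

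Against WT_HA, whose libraries also serve the comparison with PS19_HA, PS19_rescue had 29 of 37 members above 0, with 50.3% of all genes. In all, 10 members stood apart upward (6.86% of all genes): Atf3, Atf5, Psat1, Phgdh, Slc3a2, Xbp1, Dnajc3, Sel1l, Edem1 and Ppp1r15a. No member passed edgeR (0.0207% of all genes) or DESeq2 (0.0934%). At an unadjusted p of 0.05, which 4.01% of all genes reached, were Psat1 (0.38, SE 0.15), Edem1 (0.38, SE 0.13), Xbp1 (0.36, SE 0.16) and Sdf2l1 (0.58, SE 0.25), with an edgeR adjusted p of 0.864 for each. Atf5 differed by 0.36 (SE 0.17), Phgdh by 0.45 (SE 0.23), Ppp1r15b by 0.15 (SE 0.10), Ppp1r15a by 0.17 (SE 0.15) and Eif2ak3 by 0.11 (SE 0.18). Edem1 had 33.3, 35.8 and 37 CPM in PS19_rescue, above the 3 WT_HA libraries and among the PS19_HA libraries.

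The tau difference in the injected cohort was tested against that at 9 months. Age, injection and the mix of sexes change together there and cannot be told apart. No member differed by edgeR (0% of all genes, 0.569% at an unadjusted p of 0.05, none of them a member) or DESeq2 (0% of all genes). In the XBP1/ATF6 branch the signed tau difference was lower at 11 months than at 9 months for 16 of 17 members. The branch median was -0.17, against 0.03 for the ATF4 branch and 0.02 for all genes. Among all genes the difference was higher at 11 months for 53.9%. WT replicate 3, PS19 replicate 3 and WT_HA replicate 2 had a high mitochondrial share, and no PS19_HA library did. The largest single shift was Trib3 at 1.04 (SE 0.77, edgeR adjusted p = 0.99996), followed in the XBP1/ATF6 branch by Sdf2l1 at -0.44 (SE 0.65) and Hspa5 at -0.42 (SE 0.37). A lower signed difference is not a smaller one: Calr differed by -0.05 in PS19 against WT and by -0.39 in PS19_HA against WT_HA. The latter leaned on WT_HA replicate 2, of high mitochondrial share, at 451 CPM, with the other WT_HA libraries at 266 and 280 CPM. Pdia4 shifted by -0.34 (SE 0.33), Pdia6 by -0.31 (SE 0.36), Ddit3 by -0.31 (SE 0.29), Atf4 by 0.26 (SE 0.28), Atf6 by 0.13 (SE 0.27), Ern1 by -0.10 (SE 0.26) and Ppp1r15b by 0.08 (SE 0.22).

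The branches were also set against each other library by library, as the mean log2 CPM of the members after each gene was centred over the 23 libraries. The ATF4 branch minus the XBP1/ATF6 branch lay between 0.11 and 0.39 in PS19 Lsd1 heterozygotes, -0.46 and 0.49 in PS19, -0.15 and 0.52 in Lsd1 heterozygotes and -0.76 and 0.27 in WT. Every PS19 Lsd1 heterozygote was above 0, and the other 9-month groups held libraries on both sides of 0. That 0 is only the mean of the 23 libraries. The range of PS19 Lsd1 heterozygotes lay inside those of PS19 and of Lsd1 heterozygotes and overlapped that of WT. In the injected cohort it lay between -0.39 and 0.11 in PS19_rescue, -0.16 and 0.39 in PS19_HA and -0.38 and -0.19 in WT_HA. All 3 WT_HA libraries were thus lower than all 3 PS19_HA libraries, but the nearest were -0.19 and -0.16. The lowest, at -0.38, was WT_HA replicate 2, of high mitochondrial share. Of single genes, 6.32% stood apart upward between these groups and 7.76% downward. The ATF4 level alone was -0.29, 0.04 and 0.20 in PS19_HA, against -0.37, -0.41 and -0.25 in WT_HA, with 1 PS19_HA library inside the WT_HA range. The lowest values of the ATF4 branch in the series were those of WT replicate 3 at -0.86 and PS19 replicate 3 at -0.42.

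**Figure D4:**
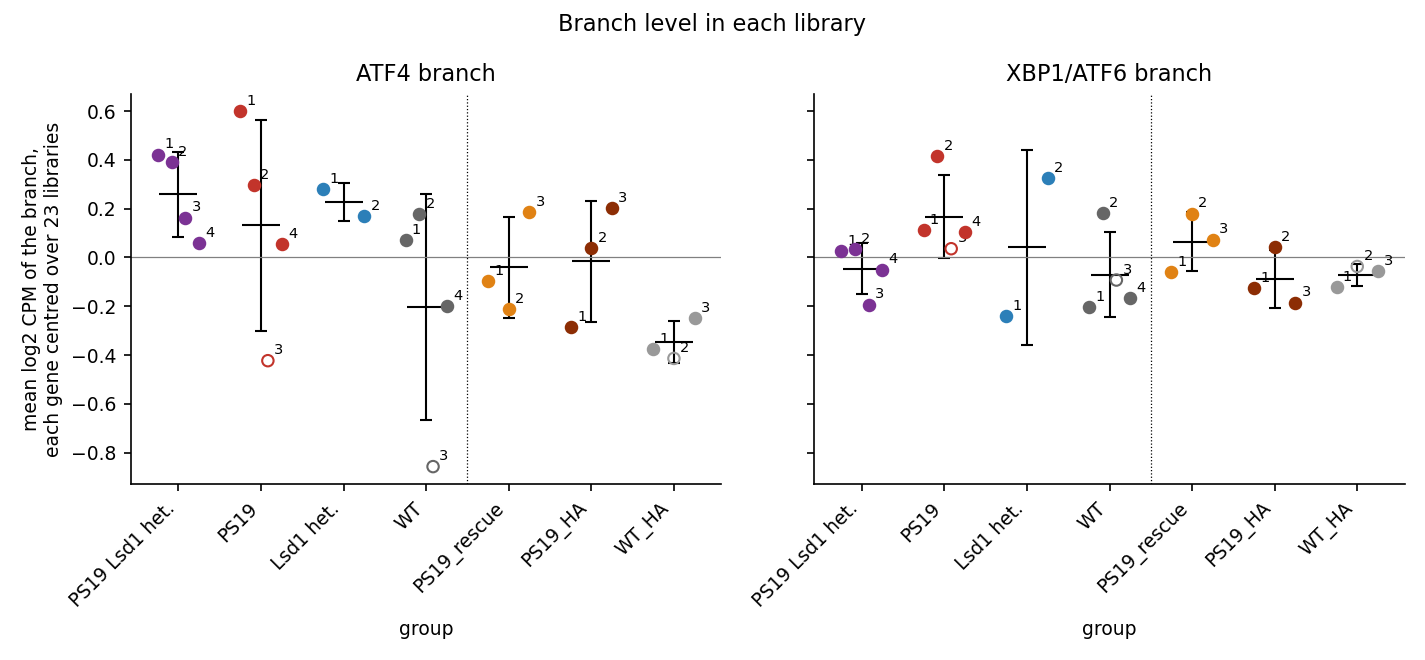
Mean log2 CPM of the members of each branch, each gene centred over 23 libraries (y axis), by group (x axis). Numbers are replicates, open points are the 3 libraries of high mitochondrial share, and bars are the mean and SD. In the ATF4 panel replicates 1 and 2 lie above replicates 3 and 4 in PS19 Lsd1 heterozygotes, PS19 and WT, and in the XBP1/ATF6 panel replicate 2 is the highest library of all 7 groups.

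Much of the variation of these genes ran across libraries within groups. In each of PS19 Lsd1 heterozygotes, PS19 and WT, replicates 1 and 2 both lay above replicates 3 and 4 for 14 of the 37 members (37.8%), against 22.3% of all genes, and both below for Dnajb9, Canx and Atf6 (8.11%, against 16.3%). The 14 were Atf5, Chac1, Shmt2, Sesn2, Ddit4 and Slc3a2 of the ATF4 branch, Xbp1, Dnajb11, Sdf2l1, Pdia6, Creld2 and Manf of the XBP1/ATF6 branch, and Ern1 and Ppp1r15a. Ddit4 had 65.4, 59.1, 33.6 and 33.5 CPM in PS19 Lsd1 heterozygotes and 74.7, 86, 24.1 and 30.9 CPM in PS19, in the order of the replicates, the same division as in WT. The labels give no batch for these numbers, so what the division marks is not known from them.

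BiP varied by library in another way. Hspa5 had 242, 403, 241 and 252 CPM in PS19, 175 and 382 CPM in Lsd1 heterozygotes and 190, 324, 190 and 196 CPM in WT. Replicate 2 was the highest library of each of these groups. It was also the highest in PS19 Lsd1 heterozygotes, at 244, 253, 177 and 249 CPM, where replicate 3 was the lowest. At 11 months replicate 2 was the highest in PS19_rescue (344 CPM) and in PS19_HA (238 CPM). In WT_HA, at 218, 210 and 247 CPM, replicate 2 was the lowest. Creld2, with ERSE letters like Hspa5, had 16.7, 27.5, 6.92 and 10.4 CPM in PS19, 13.2 and 26.1 CPM in Lsd1 heterozygotes and 14.8, 20.4, 5.25 and 9.98 CPM in WT. Manf, Sdf2l1 and Pdia6 were also highest in replicate 2 of these groups. Counted over the branch, replicate 2 was the highest library for 6 of 17 members in PS19 Lsd1 heterozygotes (30.5% of all genes), 9 of 17 in PS19 (26.2%), 16 of 17 in Lsd1 heterozygotes (47.6%) and 9 of 17 in WT (25.4%). At 11 months it was so for 11 of 17 in PS19_rescue (26.4%), 13 of 17 in PS19_HA (31.7%) and 9 of 17 in WT_HA (37.6%). Choroid plexus markers summed in replicate 2 to 231 CPM in PS19 Lsd1 heterozygotes, 1614 CPM in PS19, 232 CPM in Lsd1 heterozygotes, 3406 CPM in WT, 380 CPM in PS19_rescue, 5678 CPM in PS19_HA and 318 CPM in WT_HA, and their part in these levels was not tested.

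The libraries of high mitochondrial share were also set against the others. The 3 libraries over 10% held more than any other library of Hsp90b1 (471 to 557 CPM, against 234 to 347 CPM in the other 20), Calr (451 to 630 CPM, against 211 to 397 CPM), Canx and Dnajb9, which encodes the J-protein ERdj4. They held less than any other library of 9 members, 6 of them in the ATF4 branch: Atf4, Trib3, Psat1, Phgdh, Shmt2 and Sesn2, with Xbp1, Sdf2l1 and Eif2ak3. Phgdh was 11.8 to 24 CPM in them, against 39.2 to 80.3 CPM in the other 20. Among the genes tested in both cohorts 11.4% lay above and 16.1% below in all 3, beside 4 and 9 of the 37 members, so the share of members above was near that of all genes. Hspa5, at 190, 241 and 210 CPM, did not stand apart in these libraries, although its promoter carries ERSE letters as those of Hsp90b1 and Calr do.

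**Figure D5:**
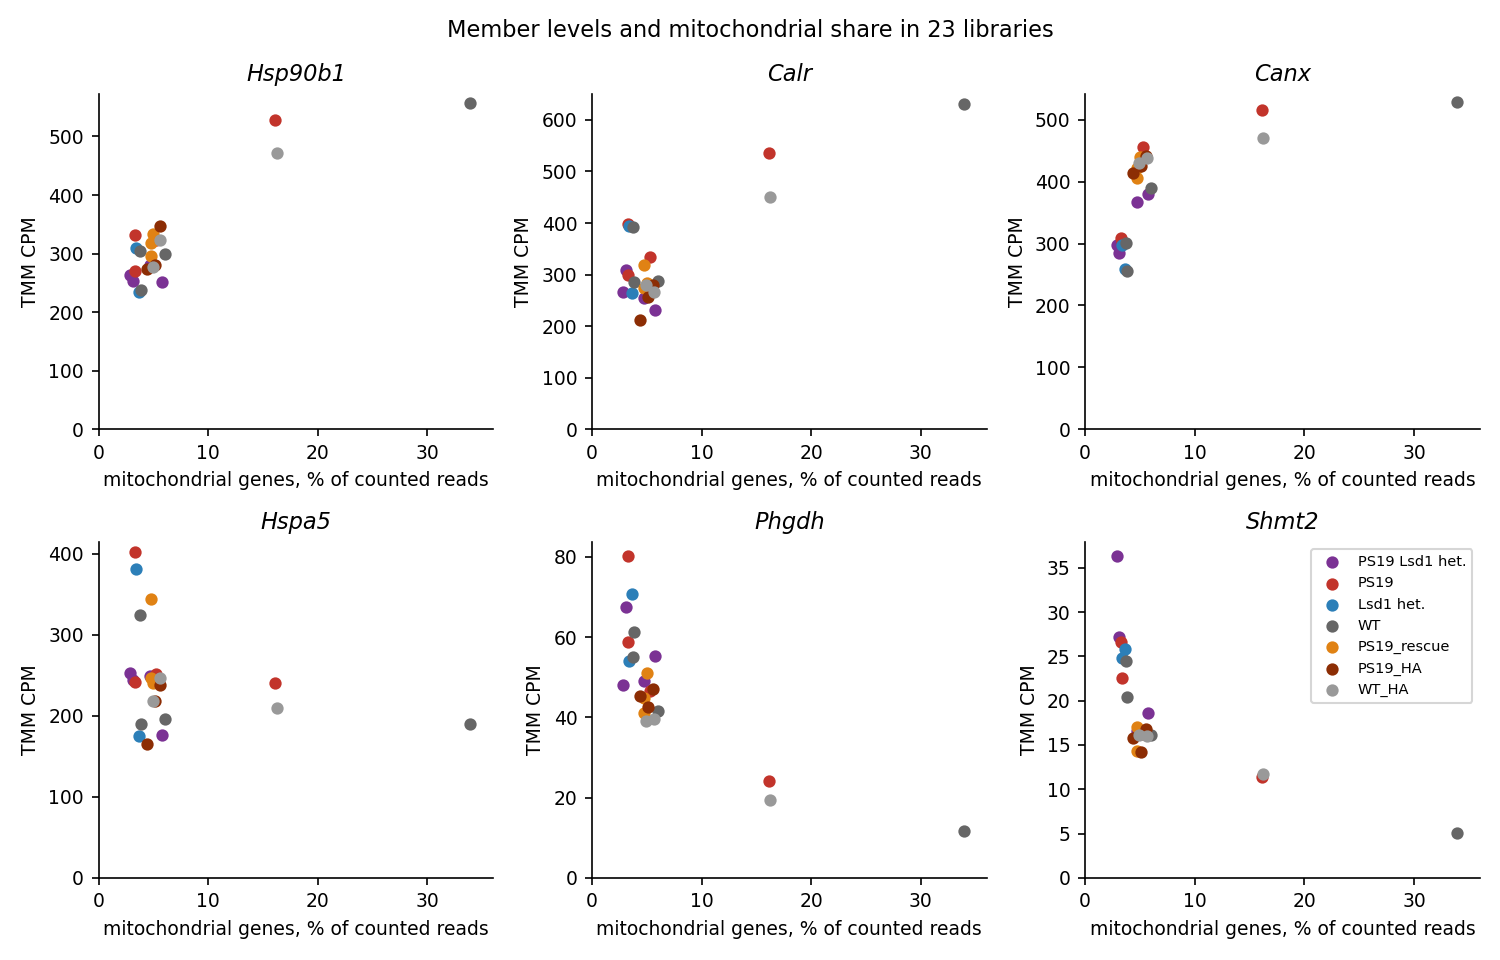
TMM-scaled CPM (y axis, from 0) of 6 members against the share of reads from mitochondrial genes (x axis, percent) in 23 libraries, coloured by group. The 3 libraries over 10% are the highest for Hsp90b1, Calr and Canx and the lowest for Phgdh and Shmt2, and lie within the others for Hspa5.

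Related lists, chosen by function, give the setting. Of 18 further ATF4 targets 17 passed the filter at 9 months, and 14 of these had a difference above 0 in PS19, where 46.5% of all genes did, with a median of 0.17. In PS19_HA against WT_HA 10 of 16 were above 0, where 50.5% of all genes were, with a median of 0.11. None of them was called there by edgeR (0.0156% of all genes) or DESeq2 (0.628%). Aldh1l2, a mitochondrial one-carbon enzyme, had 10.4, 11.5, 9.15 and 8.19 CPM in PS19 Lsd1 heterozygotes and 9.69, 5.47, 7.06 and 14.0 CPM in PS19, against 4.03, 2.66, 4.16 and 4.87 CPM in WT. Both tau groups lay above all WT libraries, with differences of 1.29 (SE 0.31) in PS19 Lsd1 heterozygotes and 1.2 (SE 0.31) in PS19. By DESeq2, which called 0.552% of all genes in PS19 Lsd1 heterozygotes and 0.958% in PS19, the adjusted p was 0.016 for PS19 Lsd1 heterozygotes and 0.0242 for PS19, under the threshold, and by edgeR it was 0.365 for PS19 Lsd1 heterozygotes and 0.256 for PS19, above it. Hmox1, a haem-degrading enzyme of the NRF2 list, differed by 1.41 (SE 0.32) in PS19, called by DESeq2 (adjusted p = 0.00462) and not by edgeR (adjusted p = 0.178), and was the only called gene of 7 on that list. Neither tool called it in PS19 Lsd1 heterozygotes, at 1.16 (SE 0.32, DESeq2 adjusted p = 0.0675). The same held in PS19_HA, at 0.87 (SE 0.35, DESeq2 adjusted p = 0.410), where the groups overlapped. Eif2ak2, which encodes the eIF2 kinase PKR, had 28.2, 9.21, 27.9 and 28.1 CPM in PS19, against 7.11, 7.39, 17.0 and 9.65 CPM in WT, an overlap, with a difference of 1.16 (SE 0.39, edgeR adjusted p = 0.624). The lists of 12 tRNA synthetases, 21 further ER folding and degradation genes and 8 mitochondrial chaperones and proteases had medians of 0.04, 0.04 and 0.00 in PS19 and no call by edgeR or DESeq2 in that comparison. Creb3l2, an ER-bound transcription factor, differed by 0.51 (SE 0.21) in PS19, 0.50 (SE 0.13) in PS19_HA and 0.53 (SE 0.13) in PS19_rescue against their wild types, and passed neither tool (lowest adjusted p 0.454 by edgeR and 0.109 by DESeq2).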

How the data were processed

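The authors deposited raw read counts per Ensembl gene for each of 23 libraries. Per the submitters' processing notes, the tools were featureCounts 1.6.0.6, HISAT2 2.1.0, Trimmomatic 0.36.5, FastQC 0.11.7 and DESeq2 2.11.40.2, with build GRCm38, and no role is stated for any of them. Per the labels' protocols the RNA was poly(A)-selected. Neither the annotation release nor the strand setting of the counting was found in those sources. Symbols were matched for 54079 of 54232 identifiers, and the 153 others held 0.0547% of reads.

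Levels are CPM after TMM scaling over all 23 libraries. Differences come from edgeR 4.0.16 (quasi-likelihood test, R 4.3.3), fitted over all genes within each age after its expression filter (minimum count 10), with Benjamini-Hochberg adjustment and a threshold of 0.05. Genes tested numbered 20122 at 9 months, 19290 at 11 months and 20931 for the difference between cohorts. DESeq2 1.42.0, size factors, no filter, a replicate block, leaving out each library and leaving out libraries with over 10% mitochondrial reads were alternatives, some chosen after seeing the data. Groups do not overlap where every library of one lies beyond every library of the other. The fits were tested on simulated data. Replicates of a group all differed by more than counting error (smallest chi-square per gene 10.5).

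The members and lists were chosen with earlier results of these data known, and in each comparison those described with their error are the members called by either tool and the 3 of lowest edgeR p in each branch. Members whose groups do not overlap, and others used to show a pattern, were named after their values were seen. Of other lists, genes called by either tool and some of lowest p are named. Same-numbered libraries deviated together with every correlation over 0.1 in 5 of the 7 comparisons, among them PS19 with WT (0.485 to 0.808). In PS19 with WT and in PS19_HA with WT_HA each library correlated most with the one of its own number. In PS19 Lsd1 heterozygotes with PS19 each correlated most with another number, as did heterozygote replicates 3 and 4 with WT. The other comparisons were mixed. Any pairing is thus a hint from the data and not from the labels.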

Additional observations from a re-analysis of the deposited data

Results flagged for a closer look

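Of 120 groups of 4 libraries checked, 9 held a library whose gap to the others passed Dixon's critical value of 0.829. Chance gives about 1 in 20. In PS19 Lsd1 heterozygotes, replicate 2 was the lowest for Asns at 59.6 CPM (others 69.2 to 71.0 CPM) and for Psat1 at 96.0 CPM (others 123 to 125 CPM), and the highest for Mthfd2 at 9.97 CPM (others 7.53 to 7.71 CPM). Replicate 3 of that group was the lowest for Hspa5 at 177 CPM (others 244 to 253 CPM).

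Hspa5 was also far above the rest in PS19 replicate 2 at 403 CPM (others 241 to 252 CPM) and in WT replicate 2 at 324 CPM (others 190 to 196 CPM). In WT, Atf3 was highest in replicate 2 at 1.59 CPM (others 0.384 to 0.572 CPM), Edem1 was highest in replicate 4 at 29.1 CPM (others 19.0 to 19.9 CPM), and Atf4 was lowest in replicate 3, the library with the largest mitochondrial share, at 51.2 CPM (others 81.4 to 84.6 CPM).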

How the results depend on the processing

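The number of members called was 1 (Atf3) with DESeq2 in PS19 and in PS19 Lsd1 heterozygotes against WT, in place of 0. Over all genes DESeq2 called 0.958% and 0.552% there. With edgeR the number was 1, in place of 0, in PS19 against WT without PS19 replicate 2. That fit called 146 of 20144 genes, against 1 of 20122 with all libraries. The cause was not tested. Leaving out 1 library gave XBP1/ATF6 medians of 0.068 to 0.37 in PS19 against WT (highest without WT replicate 2) and -0.27 to 0.33 in Lsd1 heterozygotes against WT (lowest without heterozygote replicate 2). Single members turned sign. In PS19 Lsd1 heterozygotes against PS19, leaving out 1 library gave -0.23 to 0.017 for Ern1 and -0.18 to 0.045 for Atf6, which was 0.062 without the libraries of high mitochondrial share. Dnajb9 in Lsd1 heterozygotes against WT was 0.029 within replicates 1 and 2, in place of -0.75. Eif2ak3 was -0.15 to 0.069 in PS19_rescue against PS19_HA (highest without PS19_HA replicate 3), and -0.074 to 0.25 against WT_HA, lowest without WT_HA replicate 2, the library of high mitochondrial share. Levels under about 1 CPM, as for Trib3, rest on few reads.

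With the replicate block no member was called in any comparison. Under the block the ATF4 and XBP1/ATF6 medians were 0.43 and 0.06 in PS19 Lsd1 heterozygotes against WT, 0.29 and 0.20 in PS19 against WT, 0.10 and -0.20 in PS19 Lsd1 heterozygotes against PS19, 0.14 and 0.06 in Lsd1 heterozygotes against WT, 0.23 and -0.03 in PS19_HA against WT_HA, -0.04 and 0.03 in PS19_rescue against PS19_HA, and 0.25 and 0.10 in PS19_rescue against WT_HA.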
